A study of Mus musculus with 6 samples.

Results

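*Fasn*, *Acly*, *Me1*, *Srebf1*, *Gpam*, *Fads1*, *Thrsp*, *Mid1ip1* and *Scd1* are 9 lipogenic genes that the transcription factor SREBP-1c is known to induce in liver, and they were followed in mice whose hepatocytes lack the insulin receptor. Every probe set of the array whose annotated symbol was 1 of these names alone was kept, which gave 12 probe sets of the 12422 tested, with 7 genes read by 1 probe set each, *Mid1ip1* by a pair and *Scd1* by 3. Liver Insulin Receptor Knockout (LIRKO) mice carried floxed insulin receptor alleles on both chromosomes (IR flox/flox) with a Cre transgene driven by the albumin promoter (albumin:CRE +), which is active in hepatocytes. Their littermates, called Flox, carried the same floxed alleles without Cre (albumin:CRE -). All were non-fasted males of 2 to 3 months on ad libitum chow, on a mixed genetic background. There were 6 Affymetrix MG-U74A-v2 arrays, 3 of LIRKO and 3 of Flox liver, each carrying RNA from a pool of 2 to 3 mice. The spread between arrays is therefore one between pools, and with 3 arrays a group it is known only roughly. Values are those the authors deposited after robust multichip averaging (RMA), in log2 units, so that a difference of 1 is a doubling or a halving.

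After a meal, insulin raises the amount of SREBP-1c in hepatocytes, both through transcription of its gene, *Srebf1*, and through the processing of the precursor protein to its nuclear form. SREBP-1c then turns on the enzymes that convert citrate to fatty acids and fatty acids to triglyceride, which the liver stores or secretes. The genes fall into roles along this route. *Srebf1* is the regulator, *Acly* supplies acetyl-CoA, *Me1* supplies NADPH, *Fasn* builds palmitate, *Scd1* and *Fads1* add double bonds, *Gpam* starts glycerolipid assembly, and *Thrsp* and *Mid1ip1* encode a pair of related proteins that promote lipogenesis.

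In textbook promoters of this kind, SREBP acts together with the factors NF-Y and Sp1, so the promoters of the genes with 1 start site are shown first. *Me1*, *Srebf1* and *Gpam* had several start sites and enter only the counts. RefSeq entries on build GRCm38.p6 were found for 7 of the 9 genes, with 11 start sites in all, and the 250 bases before each start were searched on both strands. Each promoter below runs 5′ to 3′ in the direction of its gene and ends at the base before the start. Capitals mark an NF-Y box (CCAAT, or ATTGG on the other strand) or a GC box of the Sp1 type (GGGCGG, or CCGCCC on the other strand).
*Fasn*, chr11:120824548-120824797, minus strand: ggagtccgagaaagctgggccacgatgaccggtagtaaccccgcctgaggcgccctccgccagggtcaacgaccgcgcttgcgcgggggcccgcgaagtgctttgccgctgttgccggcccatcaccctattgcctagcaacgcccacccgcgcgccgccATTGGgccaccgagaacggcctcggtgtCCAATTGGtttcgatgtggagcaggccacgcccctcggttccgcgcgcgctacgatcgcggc
*Thrsp*, chr7:97417551-97417800, minus strand: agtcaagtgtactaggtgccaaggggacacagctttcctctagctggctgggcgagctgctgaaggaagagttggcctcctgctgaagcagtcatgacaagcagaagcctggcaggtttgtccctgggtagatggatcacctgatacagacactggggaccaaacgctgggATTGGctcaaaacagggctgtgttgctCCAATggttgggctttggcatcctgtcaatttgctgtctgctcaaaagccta
*Acly*, chr11:100528001-100528250, minus strand: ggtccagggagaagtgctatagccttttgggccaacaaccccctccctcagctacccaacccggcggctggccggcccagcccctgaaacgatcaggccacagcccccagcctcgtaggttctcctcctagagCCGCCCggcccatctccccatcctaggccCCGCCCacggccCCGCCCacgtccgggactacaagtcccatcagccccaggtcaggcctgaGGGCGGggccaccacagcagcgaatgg
*Mid1ip1*, chrX:10717115-10717364, plus strand: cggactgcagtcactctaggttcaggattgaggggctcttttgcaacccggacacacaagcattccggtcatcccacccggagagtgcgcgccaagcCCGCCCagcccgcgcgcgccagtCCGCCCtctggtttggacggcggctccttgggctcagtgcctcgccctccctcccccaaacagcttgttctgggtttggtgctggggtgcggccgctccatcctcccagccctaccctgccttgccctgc
*Fasn* held 3 NF-Y boxes, which began 90, 62 and 59 bases before the start, with the last pair overlapping. *Thrsp* held 2, which began 79 and 52 bases before it. *Acly* held 4 GC boxes, at 117, 88, 76 and 27 bases, and *Mid1ip1* held 2, at 153 and 130 bases. Of the 11 entries, 6 had an NF-Y box and 6 had a GC box, spread over 5 of the 7 genes for each motif. These motifs are common, since 33.8% of the 32851 RefSeq promoters of the same length held an NF-Y box and 32.7% a GC box. No member's window held the sterol regulatory element core TCACNCCAC, which 1.05% of all promoters held, or the E-box CACGTG, which 6.02% held. A match is a description of the letters and not a measured binding site.

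Before the comparison, the arrays themselves differed. On LIRKO 2 and LIRKO 3 the values were compressed, with an SD over all probe sets of 1.72 and 1.78, against 2.00 on LIRKO 1 and 1.96 to 2.01 on the Flox arrays. Probe sets in the brightest 10% on Flox had median differences from Flox of -1.09 and -0.89 on those arrays and -0.01 on LIRKO 1. The 3′ to 5′ difference of the *Gapdh* control, a sign of RNA degradation, was 0.32, 0.67 and 0.44 on LIRKO 1 to 3, against 0.29 to 0.34 on the Flox arrays. All 12 lipogenic probe sets lay in the brightest 20% of probe sets on Flox, so their values on LIRKO 2 and LIRKO 3 lay in the range that was compressed, and the lipogenic values are also given for LIRKO 1 alone. On LIRKO 2 and LIRKO 3 the parts of the compression, of RNA quality and of the genotype in these values cannot be told apart. In bulk liver, fewer cells of a type and less RNA per cell cannot be told apart either. The targeted gene, *Insr*, read 5.37, 5.99 and 6.06 in LIRKO and 5.45, 5.22 and 5.38 in Flox on probe set 102146_at, so its signal was not lower in LIRKO (adjusted p = 0.245, limma). Whether the deleted part of the gene lies under this probe set is not known here, so it gives no check of the labels.

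Every one of the 9 genes averaged lower in LIRKO than in Flox liver. Over the 12 probe sets the log2 fold changes ran from -2.23 to -0.31 with a median of -1.07, against a median of 0.01 over all 12422 probe sets. At 10 of the 12 probe sets, all 3 LIRKO arrays lay below all 3 Flox arrays, as they did at 14.9% of all probe sets and at 30.4% of the 2484 probe sets in the brightest 20%. The 2 exceptions were both probe sets of *Scd1*. No member passed an adjusted p of 0.05 in limma, and over all probe sets 0.0564% passed as lower. At an unadjusted p under 0.05, 10 of the 12 were lower, against 13.5% of all probe sets and 35.9% of the brightest 20%. None was higher, against 7.43% of all probe sets. That share was not counted for the brightest 20%, which LIRKO 2 and LIRKO 3 read lower. An exact two-sided permutation test of 3 against 3 arrays cannot give a p under 0.1, and it gave p = 0.1 at each of the 10 that did not overlap. The plot of values by array shows the 12 probe sets side by side.

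**Figure D1:**
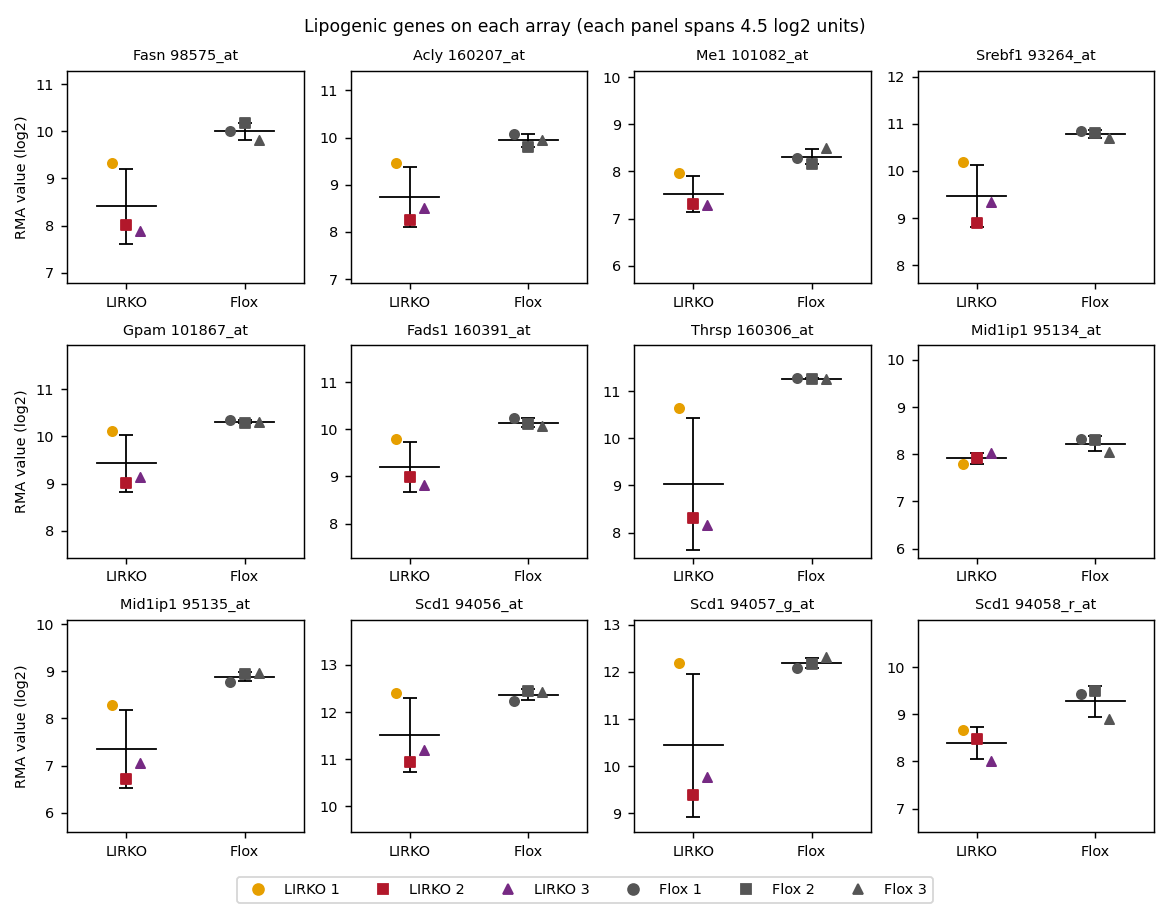
RMA values (log2, vertical axis) of the 12 lipogenic probe sets on the 3 LIRKO and 3 Flox arrays, 1 panel per probe set, with the vertical axis spanning 4.5 log2 units in each panel; points are arrays, long bars are group means and error bars are SD (n = 3). LIRKO 1 lies between the other LIRKO arrays and the Flox arrays in 9 of the 12 panels, and only the panels of Scd1 94056_at and 94057_g_at show LIRKO 1 among the Flox arrays.

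*Srebf1*, which encodes SREBP-1 and is itself induced by insulin, read 10.19, 8.90 and 9.34 on LIRKO 1, 2 and 3, against 10.85, 10.81 and 10.69 on Flox 1, 2 and 3 (probe set 93264_at). The groups did not overlap, and the highest LIRKO value, on LIRKO 1, lay 0.50 below the lowest Flox value. The means were 9.48 ± 0.66 in LIRKO and 10.78 ± 0.08 in Flox (SD, n = 3 each), which is a log2 fold change of -1.31 (SE 0.31, 95% confidence interval -2.04 to -0.57, adjusted p = 0.237, limma). On the linear scale this is 2.47 times lower. Whether this probe set reads the SREBP-1a or the SREBP-1c transcript, or both, is not known here.

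The genes of carbon and NADPH supply and of palmitate synthesis were lower on each LIRKO array. *Acly*, which encodes ATP citrate lyase, the enzyme that splits cytosolic citrate to acetyl-CoA, read 9.47, 8.26 and 8.51 in LIRKO and 10.08, 9.79 and 9.94 in Flox. LIRKO 1 was the highest of the LIRKO arrays and still 0.33 below the lowest Flox array, and the log2 fold change was -1.20 (SE 0.31, adjusted p = 0.237, limma). *Fasn*, which encodes fatty acid synthase, read 9.32, 8.01 and 7.89 in LIRKO and 9.99, 10.18 and 9.82 in Flox. The Flox arrays spread over 0.36, and LIRKO 1 lay 0.50 below the lowest of them. With means of 8.41 ± 0.80 in LIRKO and 9.998 ± 0.18 in Flox (SD, n = 3 each), *Fasn* had a log2 fold change of -1.59 (SE 0.37, 95% confidence interval -2.48 to -0.70, adjusted p = 0.237, limma), or 3.01 times lower. *Me1*, the cytosolic malic enzyme that makes NADPH from malate, read 7.96, 7.31 and 7.29 in LIRKO and 8.29, 8.17 and 8.49 in Flox. Its groups were separated by 0.21, and its log2 fold change was -0.79 (SE 0.21, adjusted p = 0.237, limma).

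*Thrsp*, also called Spot 14, is a small acidic protein induced by thyroid hormone and carbohydrate feeding. It had the lowest log2 fold change of the 12, -2.23 (SE 0.62, 95% confidence interval -3.71 to -0.74, adjusted p = 0.237, limma), and read 10.65, 8.31 and 8.16 in LIRKO and 11.28, 11.25 and 11.26 in Flox. The Flox arrays lay within 0.03 of each other and LIRKO 1 lay 0.60 below them, but LIRKO 2 and LIRKO 3 lay far below LIRKO 1, so the LIRKO mean of 9.04 ± 1.40 (SD, n = 3) stands for no single array. *Mid1ip1* encodes a paralogue of Spot 14 that, in mouse liver, helps acetyl-CoA carboxylase to polymerize. Its probe sets differed from each other. On 95135_at it read 8.28, 6.72 and 7.05 in LIRKO and 8.78, 8.93 and 8.95 in Flox, a log2 fold change of -1.54 (SE 0.38, adjusted p = 0.237, limma) with a gap of 0.51 between the groups. On 95134_at it read 7.79, 7.92 and 8.02 in LIRKO and 8.33, 8.30 and 8.05 in Flox, a log2 fold change of -0.31 (SE 0.13, 95% confidence interval -0.63 to 0.0008, adjusted p = 0.239, limma), and LIRKO 3 lay only 0.03 below Flox 3. This was the one lipogenic probe set on which LIRKO 1 was the lowest array of all 6.

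The desaturase genes were less uniform. *Fads1*, the fatty acid desaturase that completes arachidonic acid, read 9.79, 8.995 and 8.81 in LIRKO and 10.24, 10.12 and 10.06 in Flox. LIRKO 1 lay 0.27 below the lowest Flox array, and the log2 fold change was -0.94 (SE 0.25, adjusted p = 0.237, limma). *Scd1* encodes the stearoyl-CoA desaturase that makes oleic acid and is among the best known SREBP-1c targets, and its 3 probe sets gave different pictures. On 94056_at it read 12.40, 10.94 and 11.19 in LIRKO and 12.23, 12.45 and 12.42 in Flox, with LIRKO 1 inside the range of the Flox arrays. On 94057_g_at it read 12.18, 9.38 and 9.77 in LIRKO and 12.09, 12.16 and 12.31 in Flox, again with LIRKO 1 among the Flox arrays and the other LIRKO arrays far below. On 94058_r_at it read 8.67, 8.49 and 8.003 in LIRKO and 9.43, 9.49 and 8.89 in Flox, with all 3 LIRKO arrays below all Flox arrays by at least 0.22. Their log2 fold changes in limma were -0.86 on 94056_at (SE 0.36, adjusted p = 0.239), -1.74 on 94057_g_at (SE 0.68, adjusted p = 0.237) and -0.88 on 94058_r_at (SE 0.23, adjusted p = 0.237). The annotation gives the same target accession for 94056_at and 94057_g_at and another for 94058_r_at. The pair with the shared target showed no difference on LIRKO 1, but its probe sets differed from each other on LIRKO 2 and LIRKO 3. There 94056_at stood at -1.43 and -1.18 from the Flox mean, and 94057_g_at at -2.80 and -2.42. On 94058_r_at the Flox arrays spread over 0.60, the widest of the 12 probe sets. An exact two-sided permutation test gave p = 0.2 for 94056_at and p = 0.3 for 94057_g_at (n = 3 each).

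*Gpam*, the mitochondrial glycerol-3-phosphate acyltransferase that catalyses the first step of triglyceride synthesis, read 10.12, 9.02 and 9.15 in LIRKO and 10.34, 10.29 and 10.31 in Flox. The Flox arrays lay within 0.05 of each other, LIRKO 1 was 0.17 below the lowest of them, and the log2 fold change was -0.89 (SE 0.28, adjusted p = 0.237, limma).

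LIRKO 1 is the LIRKO array on which bright probe sets were not compressed, and on it the lipogenic genes were lower by less. Its differences from the Flox mean ran from -0.67 to 0.03 over the 12 probe sets, with a median of -0.45 and 11 of 12 below 0, while probe sets of like level had a median shift of -0.02. *Fasn* stood lowest at -0.67, then *Thrsp* and *Mid1ip1* on 95135_at at -0.61 each, *Scd1* on 94058_r_at at -0.60 and *Srebf1* at -0.59. *Acly* followed at -0.47, *Mid1ip1* on 95134_at at -0.43, *Me1* and *Fads1* at -0.35 each and *Gpam* at -0.20. *Fasn*, *Thrsp*, *Mid1ip1* on 95135_at, *Scd1* on 94058_r_at and *Srebf1* differed among themselves by less than the Flox SD of *Fasn*, 0.18, and with 1 array the order was not tested. *Scd1* on 94057_g_at and 94056_at closed the order at -0.01 and 0.03. LIRKO 1 lay below all 3 Flox arrays at 10 of the 12 probe sets, against 30.9% of all probe sets and 34.5% of the brightest 20%.

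When LIRKO 1 alone was set against the 3 Flox arrays in limma, the spread came from the Flox arrays and LIRKO 1 was assumed to vary like them. No lipogenic probe set then passed an adjusted p of 0.05, as 0.282% of all probe sets did as lower. The smallest adjusted p were those of *Thrsp* at 0.0644, *Mid1ip1* on 95135_at at 0.0932, *Srebf1* at 0.0989 and *Fasn* at 0.124. At an unadjusted p under 0.05, 9 of the 12 were lower, against 4.51% of all probe sets, and the other probe sets were *Gpam* and the *Scd1* pair 94056_at and 94057_g_at. A single array gives no measure of how LIRKO pools vary, so these values describe 1 pool.

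On LIRKO 2 and LIRKO 3 the same probe sets lay further down, with median differences of -1.55 and -1.38, and all 12 were below the Flox mean on both. *Thrsp* was lowest on each, at -2.96 and -3.11, followed by *Scd1* on 94057_g_at at -2.80 and -2.42. *Fasn* read -1.98 on LIRKO 2 and -2.11 on LIRKO 3, *Mid1ip1* on 95135_at read -2.17 and -1.84, and *Srebf1* read -1.88 and -1.45. Other probe sets of like level were also lower on these arrays, at median shifts of -0.97 and -0.81. Set against the probe sets nearest in level, 10 of the 12 lipogenic probe sets were lower on each of these arrays. The plot of differences against level shows them beside the medians of 10 level groups, and the brightest points lie beyond the last median.

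**Figure D2:**
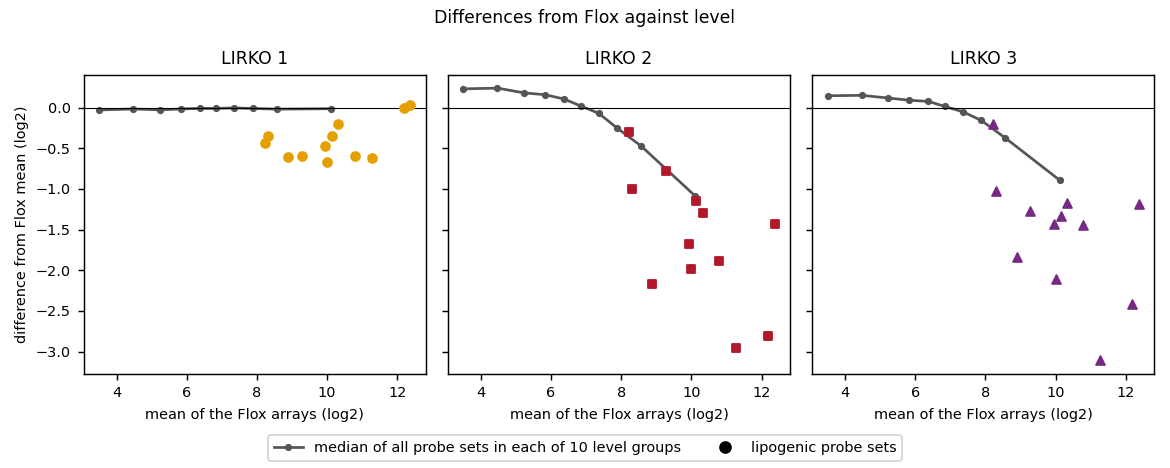
Difference of 3 LIRKO arrays from the Flox mean (vertical axis, log2) against that mean (horizontal axis, log2); the line joins the medians of all probe sets in 10 equal groups by level and the points are the 12 lipogenic probe sets. On LIRKO 1 the line stays near 0 and 11 of 12 points lie below 0, and on LIRKO 2 and LIRKO 3 the line falls to -1.09 and -0.89 in the brightest group.

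To read the genes relative to that slope, the median difference of the probe sets nearest in Flox level, 4.03% of those tested, was subtracted on each array. The level-matched differences of the 12 probe sets then had medians of -0.43, -0.63 and -0.65 on LIRKO 1, 2 and 3, and 11, 10 and 10 of 12 lay below 0. *Thrsp* remained lowest by the mean of the 3 arrays, at -1.37, with -0.63, -1.55 and -1.92 on LIRKO 1, 2 and 3. *Mid1ip1* on 95135_at averaged -1.19, with -0.59, -1.60 and -1.38, and *Fasn* averaged -0.998, with -0.66, -1.02 and -1.31. *Acly*, *Me1* and *Srebf1* averaged -0.61, -0.56 and -0.52 and lay below 0 on all 3 arrays, with *Srebf1* at -0.58, -0.61 and -0.39. *Fads1* and *Gpam* averaged -0.34 and -0.23, also below 0 on each array, and *Gpam* was the same to within 0.12, at -0.18, -0.22 and -0.30. The 3 probe sets of *Scd1* averaged 0.02 on 94056_at, -0.87 on 94057_g_at and -0.44 on 94058_r_at. *Scd1* on 94056_at thus read 0.04, 0.0007 and 0.01 on LIRKO 1, 2 and 3, no lower than the probe sets nearest in level. On 94056_at and 94057_g_at, *Scd1* lay so near the top of Flox level, at percentiles 99.4 and 99.2, that most of those were dimmer. *Mid1ip1* on 95134_at read -0.41, 0.05 and 0.09, so only LIRKO 1 was lower there. These differences are a description, with no test, since the shift was taken from the same arrays.

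**Figure D3:**
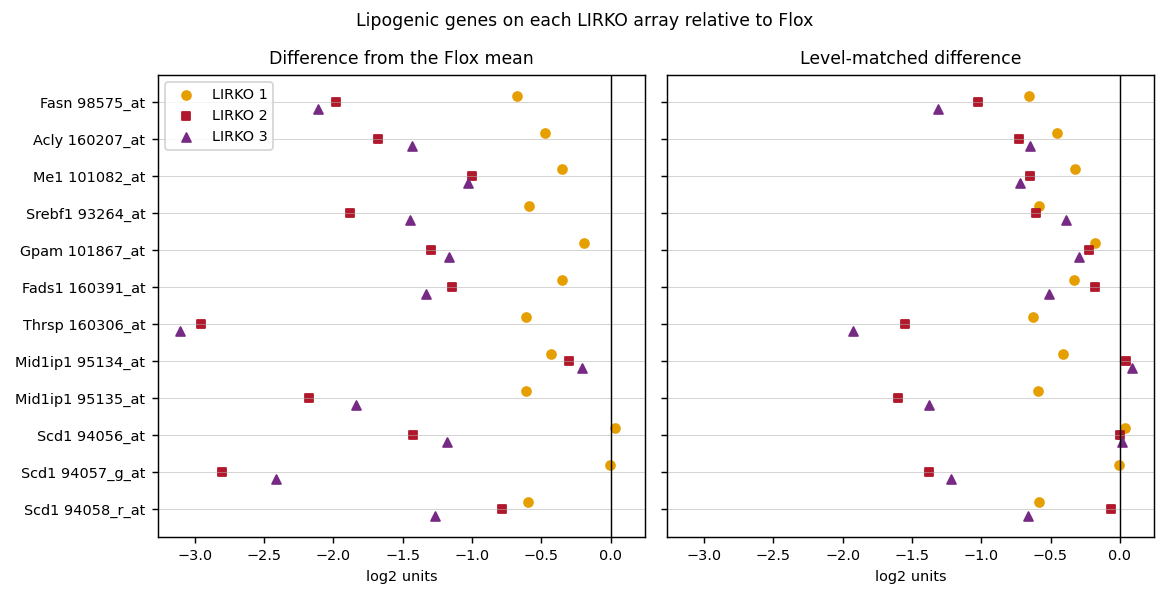
Difference of each LIRKO array from the Flox mean (left) and the same after subtracting the median difference of probe sets of like level (right), in log2 units on the horizontal axis, for the 12 lipogenic probe sets; each point is 1 LIRKO array. After subtraction the 3 arrays lie closer together for most probe sets, and Thrsp, Mid1ip1 95135_at and Fasn keep the lowest means, at -1.37, -1.19 and -0.998.

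The array that decided the call was LIRKO 1. Without it, 11 of the 12 lipogenic probe sets passed as lower at an adjusted p under 0.05 in limma, as 26.7% of all probe sets and 66.9% of the brightest 20% did, so that a call among these bright probe sets was common. The log2 fold change of *Thrsp* became -3.03 (adjusted p = 8.2e-07), that of *Fasn* -2.05 (adjusted p = 6.5e-06) and that of *Srebf1* -1.66 (adjusted p = 2.6e-05) in limma. *Mid1ip1* on 95134_at was the one that did not pass, at -0.25 (adjusted p = 0.123, limma). Cyclic loess normalization between arrays, which takes out much of the slope, gave log2 fold changes of -1.62 for *Thrsp*, -1.37 for *Mid1ip1* on 95135_at, -0.74 for *Acly*, -0.33 for *Gpam* and 0.03 for *Scd1* on 94056_at, and no lipogenic probe set passed. The plot of settings shows each gene under these treatments.

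**Figure D4:**
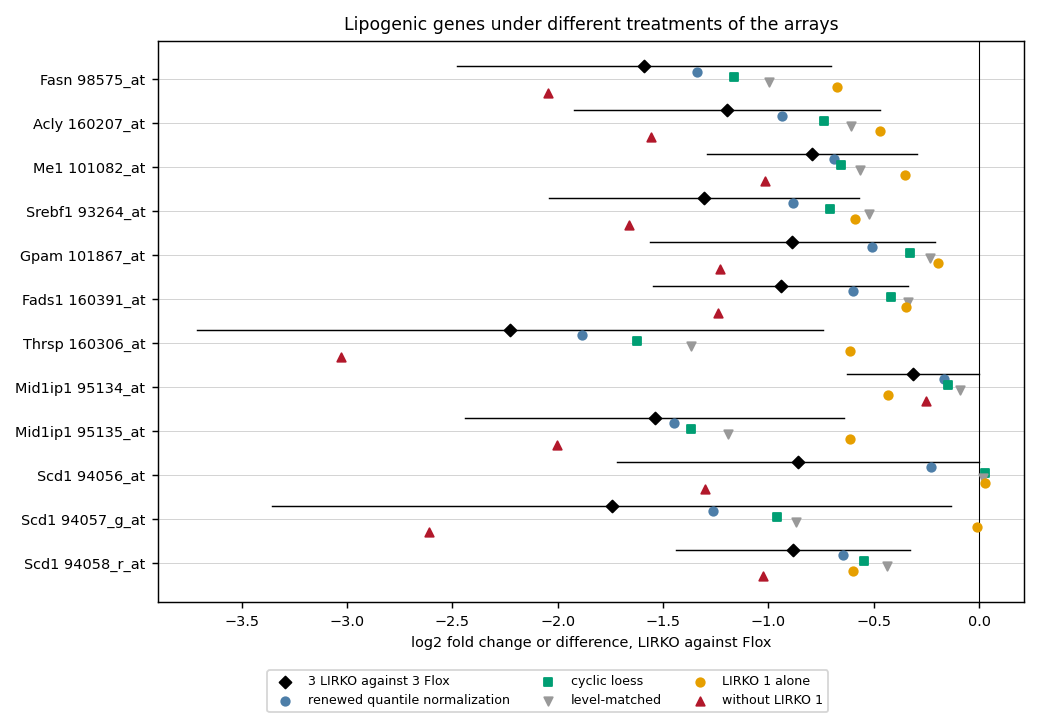
Log2 fold change or difference of LIRKO against Flox (horizontal axis) for the 12 lipogenic probe sets under 6 treatments of the arrays; the line through each black diamond is the 95% confidence interval from limma with all 6 arrays. Values without LIRKO 1 lie to the left for 11 of the 12 probe sets, LIRKO 1 alone lies nearest to 0 for several, and only Scd1 94056_at has points above 0, while the intervals of Mid1ip1 95134_at and Scd1 94056_at reach just past it.

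Other genes of the route from glucose to triglyceride, some lipases and regulators of lipogenesis were read from 6 lists. Each gene was read by its brightest probe set, with 45 of 70 listed genes measured. None passed an adjusted p of 0.05 in limma. At an unadjusted p under 0.05, 12 were lower and 2 higher, against 13.5% and 7.43% of all probe sets and, for lower, 35.9% of the brightest 20%, and the median log2 fold change was -0.06. That median takes in 14 regulators, whose own median was -0.02. The 9 lipogenic genes read the same way had a median of -1.20, with 8 of 9 lower at that p, but they were brighter, with a median Flox level of 10.14, against 8.50 for the lists. Levels in the range of the lipogenic genes were the ones read lower on LIRKO 2 and LIRKO 3, so the counts are not on an equal footing. The closest in size was the supply of NADPH, which fatty acid synthase consumes, with a median of -1.19 and 4 of 6 measured genes lower at an unadjusted p under 0.05, against 35.9% of the brightest 20%. Its median Flox level was 9.13, also in the compressed range, and its median level-matched difference was -0.47. *Tkt*, transketolase of the pentose phosphate pathway, read 9.03, 7.73 and 7.79 in LIRKO and 9.78, 9.49 and 9.61 in Flox, a log2 fold change of -1.44 (SE 0.34, adjusted p = 0.237, limma), and *Taldo1*, transaldolase, had one of -1.32 (SE 0.38, adjusted p = 0.237, limma). On LIRKO 1 these genes differed from Flox by -0.60 and -0.41. The other lower genes, the dehydrogenases *Idh1* and *H6pd*, had log2 fold changes of -1.05 and -1.35 (adjusted p = 0.237, limma for each). Their differences from Flox on LIRKO 1 were -0.28 and -0.23. *Pgd*, a dehydrogenase of the pentose phosphate pathway that itself makes NADPH, was not lower. It stood at 0.04 (adjusted p = 0.854, limma) and at 0.88 on its other probe set. *Mdh1* was not lower either, at 0.23 (adjusted p = 0.317, limma), and *G6pdx* had no probe set of its own. In the supply of acetyl-CoA and malonyl-CoA, 1 of 3 measured genes was lower at an unadjusted p under 0.05, *Slc25a1*, the mitochondrial citrate carrier that feeds ATP citrate lyase. It read 10.13, 8.77 and 9.15 in LIRKO and 10.91, 10.56 and 10.79 in Flox, a log2 fold change of -1.40 (SE 0.34, adjusted p = 0.237, limma), and its other probe set had one of -1.04. *Mlycd*, malonyl-CoA decarboxylase, had one of -0.30 (adjusted p = 0.252, limma). Both acetyl-CoA carboxylase genes, *Acaca* and *Acacb*, had no probe set of their own.

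Among elongation and desaturation, 2 of 7 were lower at an unadjusted p under 0.05. *Elovl3*, an elongase of very long chain fatty acids, read 5.43, 5.62 and 5.44 in LIRKO and 6.24, 6.09 and 5.86 in Flox, a log2 fold change of -0.57 (SE 0.14, adjusted p = 0.237, limma) that was much the same on each LIRKO array, at -0.63, -0.45 and -0.63. *Hsd17b12*, the ketoacyl-CoA reductase of the elongation cycle, had a log2 fold change of -1.38 (SE 0.41, adjusted p = 0.237, limma) and a difference of -0.44 on LIRKO 1. *Elovl6*, another elongase, stood at only -0.13 (adjusted p = 0.681, limma) and at -0.03 on its other probe set, with 0.26 on LIRKO 1. *Elovl5* stood at -0.94 (adjusted p = 0.241, limma) but at 0.05 on LIRKO 1. In triglyceride and phospholipid assembly, a list that also held the lipases *Mgll* and *Pnpla2*, 2 of 11 were lower and 1 was higher at an unadjusted p under 0.05. The gene that was higher, *Acsl4*, an acyl-CoA synthetase that prefers arachidonic acid, read 7.85, 7.82 and 8.42 in LIRKO and 7.14, 6.61 and 7.38 in Flox, a log2 fold change of 0.99 (SE 0.25, adjusted p = 0.237, limma). *Mgll*, monoglyceride lipase, which breaks down rather than assembles, stood at -1.14 (adjusted p = 0.237, limma) on its brighter probe set and 0.17 on the other. The other lower gene, *Acsl5*, also an acyl-CoA synthetase, stood at -1.50 (adjusted p = 0.237, limma), with -0.31 on LIRKO 1. Of 4 measured genes in the glucose entry list, *Khk*, ketohexokinase, which acts on fructose rather than glucose, stood at 0.41 (adjusted p = 0.237, limma). It read only 4.12, 4.501 and 4.23 in LIRKO and 3.84, 4.03 and 3.76 in Flox, among the dimmest 10% of probe sets, whose median shifts were 0.23 on LIRKO 2 and 0.15 on LIRKO 3, so it may not be above background. *Pfkl*, liver phosphofructokinase, stood at -0.40 (adjusted p = 0.238, limma). Of 14 regulators, *Mbtps1*, the protease that begins the cleavage of SREBP precursors, had a log2 fold change of -0.67, and *Nr1h3*, the oxysterol receptor LXR alpha that induces *Srebf1*, had one of -0.62 (adjusted p = 0.237, limma for each). On LIRKO 1 they differed from Flox by only -0.09 and -0.07.

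**Figure D5:**
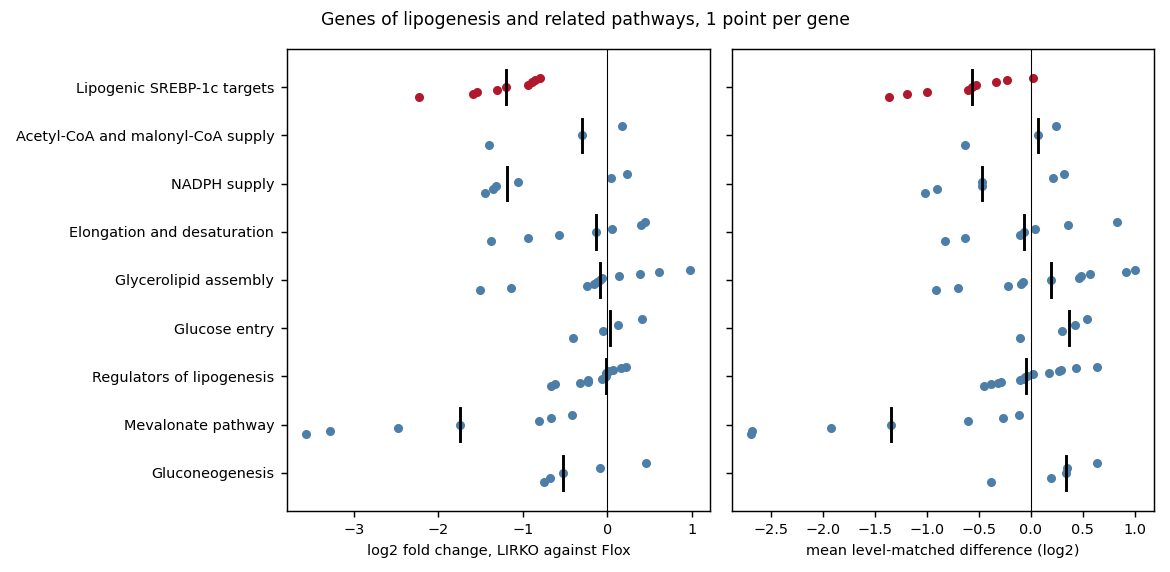
Log2 fold change of LIRKO against Flox (left) and mean level-matched difference (right), both in log2 units, for the genes of each list, 1 point per gene read by its brightest probe set; vertical bars are medians. The 9 lipogenic genes have medians of -1.20 and -0.56, near those of NADPH supply at -1.19 and -0.47, and the mevalonate genes have the lowest medians, -1.74 and -1.35.

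A pair of other insulin-related routes gives the frame. Of 7 measured genes of the mevalonate pathway to squalene epoxide, which SREBP-2 drives, 7 were lower at an unadjusted p under 0.05, against 13.5% of all probe sets and 35.9% of the brightest 20%. The median Flox level of the list was 9.59, in the compressed range. Its median log2 fold change was -1.74 and its median level-matched difference -1.35, with median differences of -1.19, -2.04 and -2.00 on LIRKO 1, 2 and 3. *Hmgcs1*, HMG-CoA synthase, was the only one of them to pass, at -2.48 (SE 0.27, adjusted p = 0.0403, limma), and *Sqle*, squalene epoxidase, stood at -1.74 (adjusted p = 0.106, limma). Of 5 measured genes of gluconeogenesis, none passed. *Ppargc1a*, the coactivator PGC-1 alpha, stood at 0.46 (adjusted p = 0.237, limma), but at 4.38, 4.44 and 4.67 in LIRKO and 4.10, 4.01 and 4.01 in Flox it too was dim, and probe sets of its level shifted by 0.24 on LIRKO 2 and 0.15 on LIRKO 3. *Pcx*, pyruvate carboxylase, stood at -0.75 on one probe set and 0.04 on the other (adjusted p = 0.279, limma for the first). Gluconeogenesis had median differences of 0.34, -0.92 and -0.76 on LIRKO 1, 2 and 3, against -0.45, -1.55 and -1.38 for the lipogenic probe sets. The difference between the lists was not tested.

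Adipocytes also express the lipogenic genes, so their markers were read on the same arrays. The mean log2 value of 5 measured adipocyte markers ran from 5.93 to 6.16 on the LIRKO arrays and from 5.98 to 6.21 on the Flox arrays, with none called, and *Adipoq*, the adiponectin gene, read 4.398, 4.35 and 4.01 in LIRKO and 4.21, 4.45 and 4.17 in Flox. The 7 measured hepatocyte markers had means of 11.3 to 12.4 on the LIRKO arrays and 12.3 to 12.4 on the Flox arrays, which marks the tissue as liver, with the low means on LIRKO 2 at 11.3 and LIRKO 3 at 11.5. Log2 fold changes of the 7 ran from -1.88 for *Ttr* to 0.10 for *Cps1*, with a median of -0.54. *Ttr* read 10.93 on LIRKO 1, against 11.70, 11.43 and 11.49 on Flox 1, 2 and 3. *Alb*, albumin, read 14.17, 14.00 and 14.05 in LIRKO and 14.23, 14.18 and 14.25 in Flox. Of the others, 3 markers of skeletal muscle had means of 6.36 to 7.17 on the LIRKO arrays and 5.86 to 6.18 on the Flox arrays, and a pair of erythroid markers had means of 8.89 to 10.4 on the LIRKO arrays and 10.8 to 10.98 on the Flox arrays. Means of Kupffer cell markers ran from 7.03 to 7.85 in LIRKO and from 7.10 to 7.75 in Flox, those of endothelial markers from 6.33 to 6.46 and from 5.98 to 6.43, those of stellate markers from 7.20 to 8.12 and from 7.28 to 7.53, and those of cholangiocyte markers from 4.85 to 5.25 and from 4.94 to 5.11. None of these markers was called, and their part in the lipogenic values was not tested.

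Genes outside the list whose 6 values most resembled the median lipogenic profile were sought by the root mean square distance over the 6 arrays, after each probe set was centred on its Flox mean. The profile was -0.45, -1.55 and -1.38 on LIRKO 1, 2 and 3. The nearest of 8242 genes were *Grhpr*, glyoxylate reductase, at a distance of 0.070, *Ctse*, cathepsin E, at 0.074, *Gpd1*, the cytosolic glycerol-3-phosphate dehydrogenase, at 0.086, *Mrps17*, a mitochondrial ribosomal protein, at 0.088, and *Lasp1*, an actin-binding protein, at 0.094. *Gpd1* read 10.79, 9.70 and 9.79 in LIRKO and 11.40, 11.31 and 11.14 in Flox. These genes lay nearer to the profile than any lipogenic probe set did, at 0.097 to 0.910. Within 0.910 lay 5053 of the 8242 genes. A gene at its Flox level on every array would also lie within 0.910, so this count does not show how common the profile was.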

How the data were processed

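The authors corrected the background, normalized and summarized the raw intensities by RMA with the R package affy, and the deposited table holds the resulting log2 value of each probe set on each array (versions are not given in the sources used here). Nothing in those sources says whether the 6 arrays were normalized together. No raw images were used. The table held 12488 probe sets, of which 66 array controls were left out and 12422 were tested with no filter on dim signals. Names came from the platform annotation, which gives 1 symbol for 10833 probe sets, several for 396 and none for 1193, and 10817 of the first were found by Entrez ID in the RefSeq gene table. LIRKO and Flox arrays were compared with limma 3.58.1 (lmFit and eBayes, R 4.3.3), two-sided, with Benjamini-Hochberg adjustment over all tested probe sets and a threshold of 0.05, as the study's methods name limma and this threshold. The level-matched difference subtracts, on each array, the median difference from Flox of the 4.03% of probe sets nearest in Flox mean. The lipogenic genes and all gene lists were chosen with earlier results of these data known, so lists have counts and medians but no test. Named are all members, the genes of each list that passed and the 2 with the smallest p, and the 5 genes of nearest profile. Values of other genes were added with their results seen. Promoters came from RefSeq on GRCm38.p6. Alternatives were renewed quantile and cyclic loess normalization, median centring, a dim filter, an intensity trend, array weights, the methods' unequal variance test, Bonferroni adjustment, the replicate number as a block, averaging of a gene's probe sets, level matching, leaving out each array, and LIRKO 1 alone. Plots were drawn in Python 3.11.15 (matplotlib 3.10.9, pandas 2.3.3, numpy 2.4.6).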

Additional observations from a re-analysis of the deposited data

Results flagged for a closer look

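The array's hybridization control probe sets, which read foreign transcripts spiked into each sample and enter no comparison above, stood apart on the arrays whose lipogenic values were lowest. Over 9 such probe sets, the median difference from the Flox mean was 1.08 on LIRKO 2, with 9 of 9 higher, and 0.962 on LIRKO 3, with 8 of 9 higher, against -0.248 on LIRKO 1 and -0.233 to 0.177 on the Flox arrays. On those arrays the lipogenic probe sets had median differences from Flox of -1.55 and -1.38, against -0.453 on LIRKO 1, and the part of this difference in the lipogenic values was not tested.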

How the results depend on the processing

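Over the alternatives, 201 of 204 values of single lipogenic probe sets stayed below 0. The 3 above it were those of *Scd1* on 94056_at, whose log2 fold change of -0.86 became 0.028 with LIRKO 1 alone, 0.0165 after level matching and 0.0272 after cyclic loess. The dim filter, the intensity trend, the unequal variance test, Bonferroni adjustment and the replicate block cannot move the log2 fold change of these probe sets. Their share of the 204 values therefore repeats the main fit. The median log2 fold change of -1.07 became -0.453 with LIRKO 1 alone, was -0.544 after level matching, -0.681 after cyclic loess and -0.784 when quantile normalization was repeated, and ran from -1.43 (without LIRKO 1) to -0.912 when each array was left out in turn. The count of lipogenic probe sets called was 0 under all alternatives in limma but 2. It became 11 with array weights, for which the estimation stopped early, and ran from 0 to 11 when each array was left out, with 11 only without LIRKO 1. The 10 that were lower at an unadjusted p under 0.05 ran from 8 to 12 in limma, from 8 to 11 when each array was left out, and became 1, *Scd1* on 94058_r_at, with the methods' unequal variance test. Over all probe sets the count of 16 called became 40 (23 higher, 17 lower) after cyclic loess, 8694 with array weights, 2 with Bonferroni adjustment and 0 with the methods' unequal variance test, at which 728 had an unadjusted p under 0.05. It became 90 with LIRKO 1 alone, which for this count was chosen after seeing the data, as were all alternatives of the count at an unadjusted p. Leaving out an array gave 2 (without LIRKO 2) to 6095 (without LIRKO 1) calls, with 3 without LIRKO 3 and 5, 3 and 3 without Flox 1, 2 and 3. The causes of these moves were not tested. A replicate block in the fit gave 11 called probe sets (5 higher, 6 lower), none of them lipogenic. Same-numbered arrays correlated at 0.32, 0.40 and 0.09 in their deviations from group means, and differently numbered ones at -0.37 to 0.17. LIRKO 1 and LIRKO 2 each correlated best with the Flox array of the same number. LIRKO 3 correlated best with Flox 2, so the numbers were not taken to pair the arrays. All 12 probe sets lay in the brightest 20% on Flox, where LIRKO 2 and LIRKO 3 were compressed, and the number of arrays also limits the precision.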
